A study of Homo sapiens with 6 samples.

Results

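The replication-dependent histone genes encode the core histones H2A, H2B, H3 and H4 and the linker histone H1 that package newly copied DNA. They were taken as every protein-coding gene whose current symbol is H1-1 to H1-6 or an H2AC, H2BC, H3C or H4C symbol followed by a number, with symbols matched by Ensembl identifier. The rule uses names alone and found 69 genes of the 62703 in the count tables, namely 6 H1, 17 H2A, 18 H2B, 13 H3 and 15 H4 genes. Their RNA was read from RNA-seq libraries of MDA-MB-231, an established human triple-negative breast cancer cell line that carries either a control hairpin (3 libraries, shControl) or one directed at RNF20 (3 libraries, shRNF20). RNF20 is the ubiquitin ligase that, with its partner RNF40, places a single ubiquitin on histone H2B. The labels give no hairpin sequence, no number of hairpins, no time after delivery, and no word on whether the cells were pools or clones.

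Replication-dependent histone genes lie in clusters and are transcribed mainly in S phase, when the cell needs histones for new chromatin. The activator NPAT gathers at these clusters. Most of their mRNAs end in a conserved stem-loop in place of a poly(A) tail. The stem-loop binding protein SLBP holds the stem-loop during cleavage, export and translation, and the mRNA is degraded when DNA synthesis stops. A few of the genes are also known to make mRNAs that run past the stem-loop and carry a poly(A) tail.

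The stem-loop separates the conventional histone mRNA end from longer, polyadenylated forms, so its sequence is shown for 8 of the genes whose values follow. A search of GENCODE 29 transcripts on the transcript strand for the pattern GG, any 2 bases, CTTTT, any 1 base, AG, any 2 bases and CC found it in 28 of the 65 members that this annotation holds, in 5 different versions. In 22 of the 28, a transcript ran 100 or more bases past the stem-loop. In the 5′ to 3′ lines below, with T for U, capitals mark the 16 bases of the stem-loop and lower case marks 5 bases on each side.
H2BC21: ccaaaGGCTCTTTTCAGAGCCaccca
H2BC4: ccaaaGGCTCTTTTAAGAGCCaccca
H2BC5: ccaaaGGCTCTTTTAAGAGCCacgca
H2AC6: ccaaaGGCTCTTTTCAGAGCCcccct
H2BC6: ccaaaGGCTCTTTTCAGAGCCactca
H4C8: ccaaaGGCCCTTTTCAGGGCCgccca
H2BC15: acaacGGCTCTTTTCAGAGCCaccta
H2AC11: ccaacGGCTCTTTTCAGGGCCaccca
The first 6 belong to members that were higher in shRNF20 and the last 2 to members that did not pass the test. H2BC18, H3C10 and H4C16, not shown, also had a stem-loop and did not pass. H3C10 has the same stem-loop and flanks as H2BC21. H2BC21, H2AC6, H2BC6 and H2BC15 had the same 16 bases, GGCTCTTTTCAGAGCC, which were found in 15 members. H2BC4 and H2BC5 had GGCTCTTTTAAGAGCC, found in 4 members. The annotated H2BC21 transcript continued for 1729 bases past the stem-loop, and that of H2BC4 for 116. A transcript with 100 or more bases past it was annotated for 5 of the 10 members that rose and 5 of the 11 that did not pass. No match was found in the annotated transcripts of H1-2 or H2BC12, which says only that these letters are not in those transcripts. The same holds for every member without a match, as annotated transcripts can be short, such as 312 bases for H4C1.

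Gene counts totalled 21988826 to 29685306 per library, so 3 counts, the level taken as the floor of detection, corresponded to 0.101 to 0.136 counts per 1000000 gene counts (CPM). RNF20 was lowered in each library of its hairpin. Its level was 57.8, 58.5 and 58.0 CPM in the control libraries, and the values were 14.1, 12.2 and 11.1 CPM with the hairpin against it (log2 fold change of -2.22 with SE 0.11, adjusted p = 5.23e-06 by edgeR). Its partner RNF40 rose from 93.3 ± 9.96 CPM to 118 ± 0.86 CPM (SD, n = 3) (log2 fold change 0.34, edgeR adjusted p = 0.00901). The shRNF20 libraries lay close to one another, with a chi-square per gene of 2.13 to 7.66 between pairs, where sampling noise alone gives 1, against 36.0 to 58.8 between shControl pairs. Mitochondrial genes held 0.934% to 1.38% of gene counts in shControl and 4.91% to 6.22% in shRNF20, and reads outside annotated exons made up 2.39% to 2.58% and 5.05% to 5.49% of all reads. An exact two-sided permutation test gave p = 0.1 for both shares, which is the smallest value that 3 libraries against 3 allow, and the part of the reads outside exons in the results below was not tested.

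Most histone genes left few or no reads. Of the 69 members, 20 had no count in any of the 6 libraries, 19 had 1 to 19 counts in total and 30 had 20 or more. All 69 together had 30738 counts. The 20 without a count were H1-5, 4 H2A genes (H2AC1, H2AC7, H2AC8 and H2AC16), 4 H2B genes (H2BC1, H2BC8, H2BC9 and H2BC10), 6 H3 genes (H3C4, H3C7, H3C8, H3C11, H3C14 and H3C15) and 5 H4 genes (H4C4, H4C5, H4C6, H4C7 and H4C13). Reads that map to several places are not in these counts, and near-identical copies lose them. For 16 of the 20, at least 95% of the 100-base stretches of their annotated transcripts occurred in no other gene's transcripts, and for H2AC7, H3C4, H3C14 and H3C15 fewer did. H3C4 and H2AC7 share 411 and 385 exon bases with ENSG00000282988 on the same strand in GENCODE 29. Reads over several genes are left out too, and made up 10.98% to 11.15% of reads in shControl and 10.74% to 10.8% in shRNF20. The share of reads mapping to several places was 3.35% to 4.88% in shControl and 3.37% to 3.71% in shRNF20 (exact two-sided permutation p = 0.4). How the RNA was selected is not given in the sources used here. A list of 20 RNAs without a poly(A) tail gave 12 at 0 in all 6 libraries and 19 to 30.7 CPM in sum in shControl against 34.6 to 36.1 CPM in shRNF20. Of its 4 members with enough counts to test, the small nucleolar RNAs SNORA73B (0.097 to 2.30 CPM) and SNORD17 (2.73 to 6.87 CPM) rose and 2 did not pass. The part of this difference in the histone values was not tested.

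**Figure D1:**
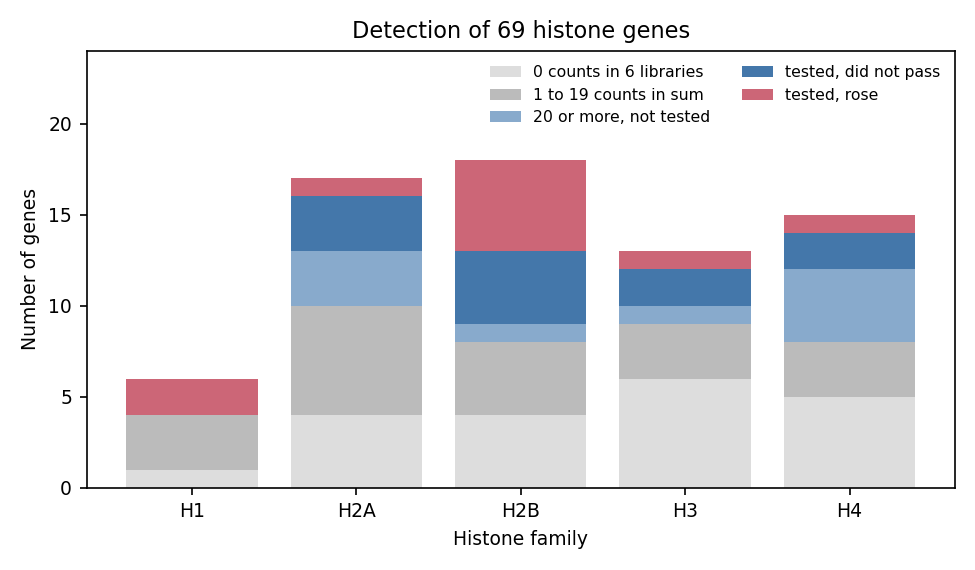
Number of replication-dependent histone genes of each family by total count over the 6 libraries and, for those with enough counts, by the edgeR result. Of 69 members, 48 could not be tested and 20 of those had no count.

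Enough counts for the test were found for 21 members. Of these, 10 rose in shRNF20, 0 fell and 11 did not pass an edgeR adjusted p of 0.05. Among all 15797 genes tested, 28.7% rose and 29.8% fell (58.4% in either direction), so differences were common in both directions. The median log2 fold change was 0.64 over the 21 members and -0.01 over all genes tested. At an unadjusted p under 0.05, edgeR gave 1 member that was lower, H2BC17, while DESeq2 and limma-voom gave 0 that fell after adjustment, against 21.7% and 28.5% of all genes they tested. Higher members numbered 9 with DESeq2, against 20.3% of all genes, and 10 with limma-voom, against 29.1%. For 10 of the 21 tested members every shRNF20 library was higher than every shControl library, which held for 33.5% of all genes tested, and for 0 of the 21 every one was lower, against 32.8%. Without a filter on low counts all 49 detected members could be tested and the same 10 rose, against 14.7% of all genes, and 0 fell, against 16.7%. With the 3 shRNF20 libraries summed to 1 sample, which leaves the spread to the shControl libraries, 2 members rose (H2BC21 and H2BC6), against 10.1% of all genes, and 0 fell, against 9.28%. The lowest count from leaving out a library was 7, of 22 tested without shRNF20 replicate 1 (22.2% of all genes) and of 24 tested without shRNF20 replicate 3 (22.6%). Upper quartile scaling gave 10 of 21 and a filter of at least 1 CPM in 3 libraries gave 9 of 12, each against 30.3% of all genes. That filter takes any 3 libraries, so members such as H2BC6 and H4C8 passed it only through shRNF20, where they were high. Its 9 of 12 is therefore not independent of the direction of change. The main filter also takes any 3 libraries. H3C2, with 14, 12 and 9 counts in shControl, passed it only with the help of shRNF20 libraries. H4C1, with 11, 14 and 10 counts in shControl and fewer in shRNF20, did not pass it. The 10 of 21 is therefore not fully independent of direction either. Without mitochondrial genes 11 members rose, against 28.3% of all genes, and 0 fell, against 30.1%. A change in the number of cells making a histone mRNA and a change in its amount per cell cannot be told apart in bulk RNA.

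**Figure D2:**
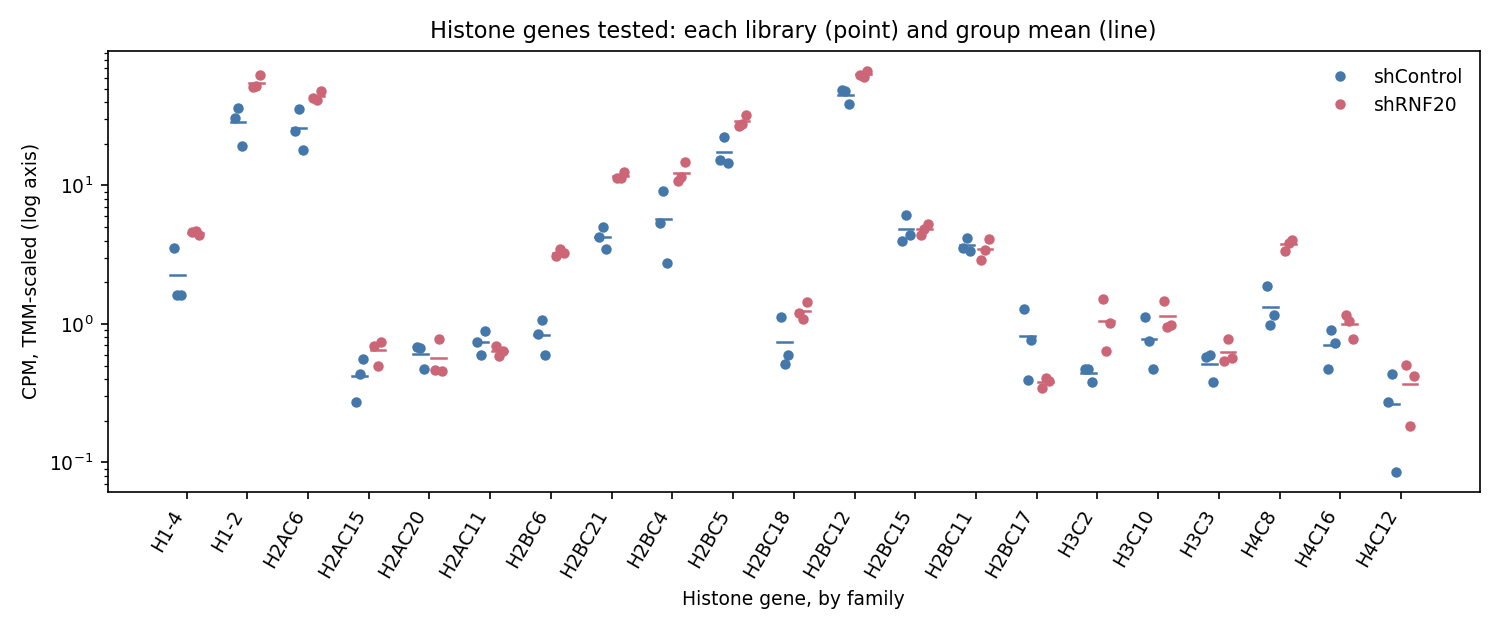
Level of each tested member in each of the 6 libraries, in CPM on a log scale, with points for libraries and the group marked by colour. For the 10 members that rose, every shRNF20 point is above every shControl point.

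The linker histones H1 bind the DNA that enters and leaves the nucleosome. Of 6 H1 genes, 2 could be tested and both rose. H1-2, at chr6:26055740-26056470 (GRCh38.p14), a single-exon gene, was at 30.5, 36.0 and 19.3 CPM in shControl and 51.1, 52.1 and 62.7 CPM in shRNF20. The means were 28.6 ± 8.48 against 55.3 ± 6.43 CPM (SD, n = 3; log2 fold change of 0.95 with SE 0.20, adjusted p = 0.00377 by edgeR). The lowest shRNF20 library, at 51.1 CPM, was above the highest shControl library, at 36.0 CPM. H1-4, at chr6:26156329-26157115, had 104, 41 and 38 counts in shControl and 119, 104 and 124 in shRNF20, or 2.25 ± 1.10 against 4.55 ± 0.18 CPM (log2 fold change 1.0, edgeR adjusted p = 0.0228). Its first shControl library, at 3.52 CPM, stood well above the other shControl libraries, both at 1.62 CPM. H1-4 no longer passed without shControl replicate 3 (log2 fold change 0.81) or without shRNF20 replicate 1, 2 or 3 (0.99, 0.97 and 1.02).

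H2A and H2B pair into the dimers on the faces of the nucleosome. Of 17 H2A genes, 4 could be tested and 1 rose. H2AC6, at chr6:26124172-26124690, had 726, 905 and 426 counts in shControl and 1111, 918 and 1366 in shRNF20, or 26.1 ± 8.90 against 44.1 ± 3.39 CPM (log2 fold change of 0.76 with SE 0.21, adjusted p = 0.0141 by edgeR). Its groups did not overlap, with 35.7 CPM the highest of shControl and 41.7 CPM the lowest of shRNF20. The call was lost without shRNF20 replicate 3 (log2 fold change 0.68). H2AC15 (log2 fold change 0.64), H2AC20 (-0.13) and H2AC11 (-0.21) did not pass, with edgeR adjusted p of 0.180, 0.779 and 0.578. H2AC15 had 8, 11 and 13 counts in shControl and 18, 11 and 21 in shRNF20, H2AC20 had 20, 17 and 11 against 12, 17 and 13, and H2AC11 had 22, 15 and 21 against 18, 13 and 18. In CPM the groups overlapped for all 3. No 100-base stretch of its annotated transcript was unique to H2AC15, with both strands searched. All 393 of its exon bases in GENCODE 29 overlap H2BC15, which lies on the other strand. In the strand columns of H2AC15, 96.5% of the reads were kept.

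H2B carries the lysine that RNF20 and RNF40 ubiquitinate. Of 18 H2B genes, 9 could be tested, 5 rose and 4 did not pass. The family held 53.9% of all member counts. H2BC12, at chr6:27138293-27146858, had the most counts of any member, 8450 in all. It was at 48.8, 47.8 and 38.5 CPM in shControl and 62.8, 61.2 and 67.3 CPM in shRNF20. The means were 45.0 ± 5.72 against 63.7 ± 3.17 CPM (log2 fold change of 0.50 with SE 0.10, adjusted p = 0.00336 by edgeR), and the highest shControl library, at 48.8 CPM, was below the lowest of shRNF20, at 61.2 CPM. In H2BC12, 71.6% of the 100-base stretches were unique.

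H2BC21 lies in another cluster, at chr1:149884459-149886682. It had 125, 126 and 82 counts in shControl and 296, 249 and 356 in shRNF20, or 4.23 ± 0.74 against 11.7 ± 0.67 CPM (log2 fold change of 1.47 with SE 0.16, adjusted p = 0.000137 by edgeR). The 3 shRNF20 libraries lay between 11.3 and 12.5 CPM and the shControl libraries between 3.49 and 4.97 CPM. H2BC21 and H2BC6 were the members that passed in all 16 alternatives. H2BC6, at chr6:26183761-26184230, had 25, 27 and 14 counts in shControl and 81, 76 and 92 in shRNF20. That is 0.84 ± 0.24 against 3.27 ± 0.17 CPM (log2 fold change of 1.95 with SE 0.27, adjusted p = 0.000387 by edgeR). H2BC6 shares 730 exon bases with the antisense gene ENSG00000283064, which also rose (log2 fold change 2.89, edgeR adjusted p = 0.00156). Reads from both cannot be told apart without strand, and 27.7% of the reads of H2BC6 in the strand columns were kept in its count.

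H2BC5, at chr6:26158121-26171349, had 448, 564 and 340 counts in shControl and 704, 612 and 911 in shRNF20, or 17.3 ± 4.31 against 29 ± 2.67 CPM (log2 fold change 0.74, edgeR adjusted p = 0.0054). H2BC4, at chr6:26113170-26123926, had 158, 231 and 65 counts in shControl and 279, 252 and 420 in shRNF20, or 5.75 ± 3.19 against 12.3 ± 2.15 CPM (log2 fold change of 1.10 with SE 0.36, adjusted p = 0.0269 by edgeR). The shControl libraries of H2BC4 were spread from 2.77 to 9.12 CPM. It was no longer called without shControl replicate 1 (log2 fold change 1.03) or without shRNF20 replicate 1, 2 or 3 (1.18, 1.14 and 0.93).

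The other 4 H2B genes tested did not pass. H2BC15 had the same mean in shControl (4.84 ± 1.17 CPM) and shRNF20 (4.84 ± 0.48 CPM), and H2BC11 was at 3.69 ± 0.44 and 3.47 ± 0.62 CPM (log2 fold change -0.09, edgeR adjusted p = 0.736). H2BC18 had 33, 13 and 14 counts in shControl and 31, 24 and 41 in shRNF20 (log2 fold change 0.73, edgeR adjusted p = 0.112). It passed as higher without shControl replicate 1, where its log2 fold change was 1.14. H2BC17 had 38, 10 and 18 counts in shControl and 9, 9 and 11 in shRNF20 (log2 fold change of -1.11 with SE 0.47, adjusted p = 0.0686 by edgeR). It passed as lower without shControl replicate 2, where its log2 fold change was -1.46, and it was the only member with a call in that direction in any alternative run.

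H3 and H4 form the tetramer at the core of the nucleosome. Of 13 H3 genes, 3 could be tested and 1 rose. H3C2, at chr6:26031589-26032099, had 14, 12 and 9 counts in shControl and 39, 14 and 29 in shRNF20, or 0.44 ± 0.05 against 1.05 ± 0.43 CPM (log2 fold change of 1.24 with SE 0.39, adjusted p = 0.0229 by edgeR). The second shRNF20 library was near the shControl libraries, at 0.636 CPM. H3C2 did not pass with DESeq2 (log2 fold change 1.24), without shControl replicate 3 (1.15), or without shRNF20 replicate 1 or 3 (0.89 and 1.25). H3C10 and H3C3 did not pass, with 63 and 41 counts in shControl and 87 and 47 in shRNF20.

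Of 15 H4 genes, 3 could be tested and 1 rose. H4C8, at chr6:26285126-26285534, had 55, 25 and 27 counts in shControl and 88, 84 and 115 in shRNF20, or 1.33 ± 0.47 against 3.75 ± 0.33 CPM (log2 fold change of 1.48 with SE 0.28, adjusted p = 0.00195 by edgeR). Its lowest shRNF20 library, at 3.39 CPM, was above the highest shControl library, at 1.86 CPM. In its strand columns 69.9% of the reads were kept, and the log2 fold change over the sum of these columns was 1.31. H4C16, which lies apart on chromosome 12, and H4C12 did not pass (log2 fold changes 0.50 and 0.48, edgeR adjusted p = 0.244 and 0.504). No 100-base stretch of H4C12 was unique to it.

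A further 9 members had 20 or more counts but too few to test. Among them H3C13 had 3, 6 and 5 counts in shControl and 16, 12 and 11 in shRNF20. H4C9 had 6, 4 and 2 against 16, 7 and 10, and H4C3 had 9, 3 and 1 against 13, 3 and 6. Totals were lower in shRNF20 for 4 of the 9. H4C1 had 11, 14 and 10 against 7, 7 and 3, H2AC14 had 14, 6 and 5 against 2, 4 and 0, and H2AC12 had 9, 3 and 2 against 1, 1 and 7. H2AC13, the other of the 4, had 11, 7 and 6 against 9, 4 and 8. H4C14 had 8, 10 and 5 against 11, 3 and 11, and H2BC3 had 3, 3 and 3 against 4, 3 and 4. None of the 9 passed in the edgeR fit without a filter.

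Summing counts uses every member, whether or not it could be tested. Sums are given per 1000000 gene counts without TMM scaling. All members together held 152, 179 and 114 in shControl and 237, 236 and 271 in shRNF20, so every shRNF20 library was higher. The means were 148 ± 32.8 and 248 ± 19.8 (SD, n = 3), 1.67-fold apart. H1 went from 30.8 to 60.2 (1.96-fold), H2A from 28.9 to 46.8 (1.62-fold) and H2B from 83.3 to 131 (1.57-fold). H3 went from 2.0 to 3.53 (1.76-fold) and H4 from 3.48 to 6.60 (1.89-fold). The sums describe these libraries and no test was made of them.

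Those sums rest on few genes. Of the H1 counts, 6528 of 7073 were from H1-2, and of the H2A counts, 5452 of 5870 were from H2AC6. H1-2, H2AC6, H2BC4, H2BC5, H2BC12 and H2BC21, which are known to make polyadenylated mRNA, held 86.7% of all member counts, 26648 of 30738, and all 6 rose. Together they stood at 128, 156 and 95.4 in shControl and at 206, 206 and 239 in shRNF20. Of the other 63 members 15 could be tested, 4 rose (H1-4, H2BC6, H3C2 and H4C8) and 0 fell. Among all genes tested 28.7% rose and 29.8% fell, so the 4 of 15 that rose was near the background. The sum of the other 63 was 24.1, 23.0 and 18.5 in shControl and 31.0, 29.9 and 31.6 in shRNF20, 1.41-fold apart. The 48 members that could not be tested had 484 counts in all, at 2.94 ± 0.64 and 3.24 ± 0.76, which overlapped between the groups.

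**Figure D3:**
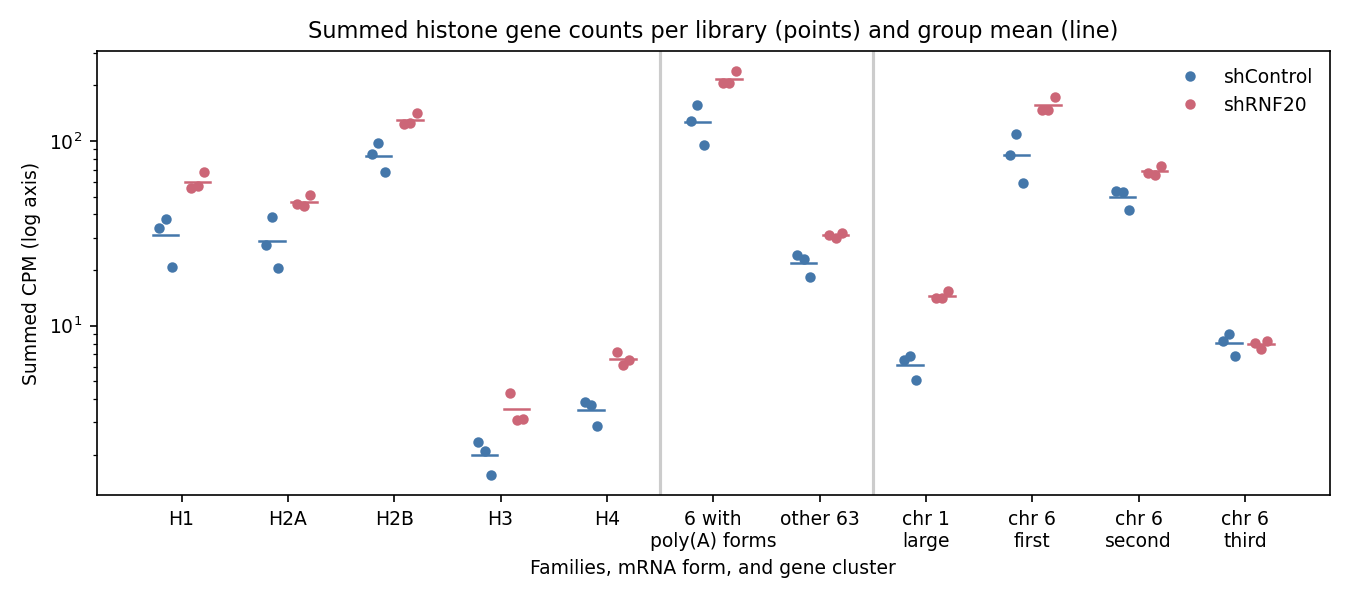
Summed counts of the members of each histone family, of the 6 members known to make polyadenylated mRNA and the other 63, and of the 4 larger gene clusters, per 1000000 gene counts in each library on a log axis, with lines at the group means. All 5 families were higher in each shRNF20 library than in any shControl library.

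The members lie in 5 clusters on chromosomes 1 and 6 and at a single site on chromosome 12. The largest, chr6:25726063-26285534, holds 34 members, of which 14 had no count, 9 could be tested and 8 rose, where 28.7% of all genes tested rose. H3C3 was the one that did not pass there. Its members summed to 83.5, 109 and 58.9 in shControl and 146, 148 and 173 in shRNF20 (1.86-fold). Further along, chr6:27132316-27147562 holds 5 members, of which 3 could be tested and 1, H2BC12, rose. The third group on this chromosome, chr6:27807479-27893891, holds 16 members. None of the 5 that could be tested there passed in either direction with edgeR, DESeq2 or limma-voom, and at an unadjusted edgeR p under 0.05 there were 0 higher and 1 lower, H2BC17. Its sum was level, at 8.25, 8.98 and 6.89 in shControl and 8.04, 7.5 and 8.28 in shRNF20, but 747 of its 1244 counts were from H2BC15. The median log2 fold change of its 5 tested members was 0.48, against 0.64 over all 21. Of the 5, 4 were above 0, with H2BC15 at 0.0026 among them, and 1 was below. The tested members other than H2BC15 had only 50 to 150 counts each, so the lack of a call does not show that they were unchanged. Of the 6 members known to make polyadenylated mRNA, H1-2, H2AC6, H2BC4 and H2BC5 lie in the first chromosome 6 cluster and none in the third. The difference in response between the clusters was not tested, and it was not separated from this grouping.

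On chromosome 1, the cluster at chr1:149782689-149887965 holds 11 members, of which 3 could be tested and H2BC21 rose. Its sum was 2.35-fold apart, at 6.17 ± 0.95 and 14.5 ± 0.69. Of the 6 other genes tested within the clusters, 2 rose, 2 fell and 2 did not pass. Among all genes tested 28.7% rose and 29.8% fell, so the counts for these 6 were near the background. The 2 of them that rose are antisense genes, ENSG00000283064, given above beside H2BC6, and ENSG00000233030 in the chromosome 1 cluster (0.11 to 0.92 CPM, log2 fold change 2.98, edgeR adjusted p = 0.00561). In the first chromosome 6 cluster HFE, an iron-regulating membrane protein gene, fell (26.9 to 18.4 CPM, log2 fold change -0.55, edgeR adjusted p = 0.00249). TRIM38 was at 32.1 and 34.7 CPM (edgeR adjusted p = 0.297). BOLA1, in the chromosome 1 cluster, fell from 3.90 to 1.90 CPM (edgeR adjusted p = 0.0271).

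**Figure D4:**
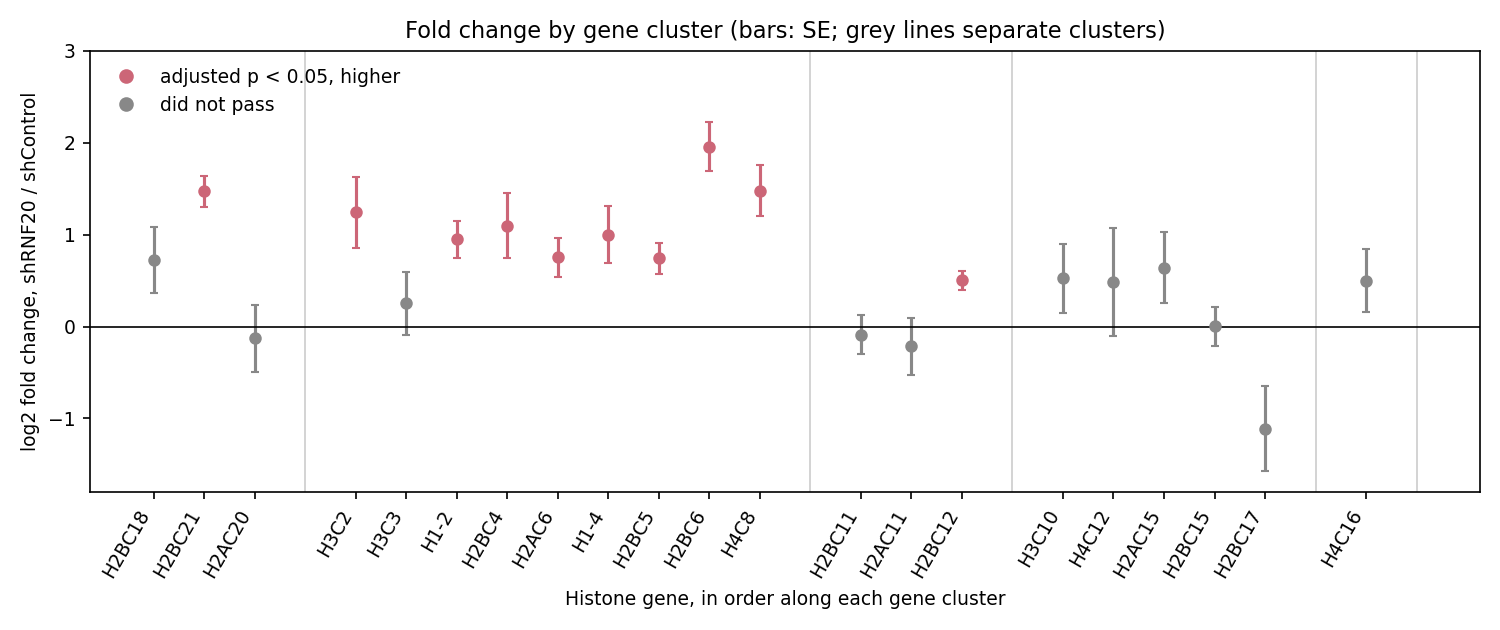
Log2 fold change, shRNF20 against shControl, with its standard error for the 21 tested members, by genomic cluster. In the first chromosome 6 cluster 8 of 9 rose, and in the third 0 of 5 did, where 28.7% of all genes tested rose.

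H2A and H2B genes often share 1 promoter region, transcribed in opposite directions, so 1 promoter is shown from a pair with a member that rose and a member that did not pass, with 2 others for comparison. There were 13 pairs of member start sites less than 500 bases apart, 194 to 248 bases between them. Among them H3C4 with H2BC7 pairs an H3 with an H2B gene, and H2BC7 is counted again with H2AC7. H2BC21 rose and its partner H2AC20, 236 bases away, did not pass (log2 fold changes 1.47 and -0.13). Both H2BC4 and H2AC6, 246 bases apart, rose. H2BC11 and H2AC11, 248 bases apart, did not pass (-0.09 and -0.21). Differences within pairs were not tested. The lines give the 250 bases before the start of H2BC21 (chr1:149886683-149886932, minus strand), H2BC6 (chr6:26183511-26183760, plus strand) and H2BC11 (chr6:27132796-27133045, minus strand), 5′ to 3′ on the gene's strand, from RefSeq GRCh38.p14. Capitals mark ATTTGCAT, the octamer motif bound by OCT1, and TATAAA, each on either strand, so that TTTATA is TATAAA on the other strand.
H2BC21: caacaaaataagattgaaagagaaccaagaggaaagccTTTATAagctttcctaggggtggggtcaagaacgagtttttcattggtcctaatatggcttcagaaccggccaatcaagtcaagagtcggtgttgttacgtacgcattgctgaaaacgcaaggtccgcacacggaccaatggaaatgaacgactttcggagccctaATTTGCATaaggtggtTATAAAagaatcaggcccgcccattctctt
H2BC6: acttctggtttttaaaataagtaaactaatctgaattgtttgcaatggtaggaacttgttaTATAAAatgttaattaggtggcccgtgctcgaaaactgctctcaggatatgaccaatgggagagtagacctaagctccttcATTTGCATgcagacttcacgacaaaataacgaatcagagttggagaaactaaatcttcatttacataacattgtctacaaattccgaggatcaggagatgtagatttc
H2BC11: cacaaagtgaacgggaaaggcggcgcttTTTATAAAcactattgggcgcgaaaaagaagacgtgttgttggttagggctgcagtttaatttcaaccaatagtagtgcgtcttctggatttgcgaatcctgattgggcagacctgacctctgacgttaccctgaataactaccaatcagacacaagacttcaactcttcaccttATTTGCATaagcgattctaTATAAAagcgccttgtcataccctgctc
The first 2 belong to members that rose and the last to one that did not pass, and all 3 hold the octamer. It was found in 14 of 18 H2B and 11 of 16 H2A promoters of 300 bases (250 before the start and 50 after it), in 1 of 11 H3 promoters and in 0 of 6 H1 and 0 of 13 H4 promoters. Of all 27305 promoters of that length, 1.8% hold it. Among tested H2B genes, 4 of the 5 that rose and 3 of the 4 that did not pass hold it. TATAAA was in 8 of the 10 members that rose and 7 of the 11 that did not pass, against 12% of all promoters. CCAAT, searched on both strands like the others, was in 9 of the 10 and 9 of the 11, against 35.7%. A match of these letters is a description, and the groups were not compared by a test.

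Factors that make, process and degrade histone mRNA moved both ways. Of 28 in the list, 14 did not pass, 8 rose and 6 fell, against 28.7% and 29.8% of all genes tested, so the counts were near or below the background, and the median log2 fold change was 0.08. SLBP was at 139, 120 and 111 CPM in shControl and 67.7, 67.1 and 62.1 CPM in shRNF20 (log2 fold change of -0.91 with SE 0.10, adjusted p = 9.66e-05 by edgeR). Every shRNF20 library was below every shControl library. NELFE, a subunit of the negative elongation factor, also fell (95.9 to 56.3 CPM, log2 fold change -0.77), while another subunit, NELFA, rose (46.3 to 69.7 CPM, 0.59). UPF1, a helicase that takes part in histone mRNA decay, rose from 227 to 312 CPM (log2 fold change 0.46). NPAT, named here after its values were seen because it is the activator at these clusters, did not pass (41.2 ± 5.60 and 38.6 ± 0.53 CPM, edgeR adjusted p = 0.475).

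The replication-independent histones, which are made from polyadenylated mRNA also outside S phase, were measured too. H2AX, which is in this list, makes both this kind of mRNA and the kind that ends in the stem-loop. Of 14 listed, 11 could be tested: 6 fell, 1 rose and 4 did not pass (median log2 fold change -0.32), where 29.8% of all genes tested fell and 28.7% rose. H2AX, the variant phosphorylated at DNA breaks, fell from 285 ± 50.2 to 155 ± 5.06 CPM (log2 fold change -0.87, edgeR adjusted p = 0.000374). CENPA, the centromeric H3, fell from 24.7 to 13.7 CPM (-0.85), and H3-3B, which encodes H3.3, rose from 329 to 460 CPM (0.48). Of 29 chaperones tested of 30, 6 rose, 8 fell and 15 did not pass, near the same background. ANP32E, a chaperone of H2A.Z, fell from 198 to 85.2 CPM (log2 fold change -1.22), and NAP1L1 fell from 920 to 526 CPM (-0.81). ASF1A, a chaperone of H3 and H4, rose from 16.7 to 37.2 CPM (1.15), and SUPT6H, a transcription elongation factor, rose by 0.53 on the log2 scale.

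Of 37 genes of the G1 to S transition and DNA replication, 15 fell, 5 rose and 17 did not pass, where 29.8% of all genes tested fell and 28.7% rose. Their median log2 fold change was -0.39, against -0.01 over all genes tested. E2F1, a transcription factor of S phase entry, fell from 119 ± 27.3 to 27.0 ± 1.59 CPM (log2 fold change -2.14, edgeR adjusted p = 2.28e-05), and SLBP is in this list too. CDC25A, a phosphatase that activates cyclin-dependent kinases, rose from 45.6 to 123 CPM (1.43). CCNE2, a cyclin of the same transition, rose from 8.07 to 12.7 CPM (0.65), a call lost without shRNF20 replicate 1, 2 or 3 (0.60, 0.64 and 0.66). Among 17 genes of H2B ubiquitination and its removal, 7 rose, 2 fell and 8 did not pass, against the same shares of all genes. Besides RNF20, USP7 fell (log2 fold change -0.37), and the rises with the smallest p were those of WAC (0.64) and UBE2B (0.50), which act with RNF20. The part of the change in S phase genes in the histone values was not tested.

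**Figure D5:**
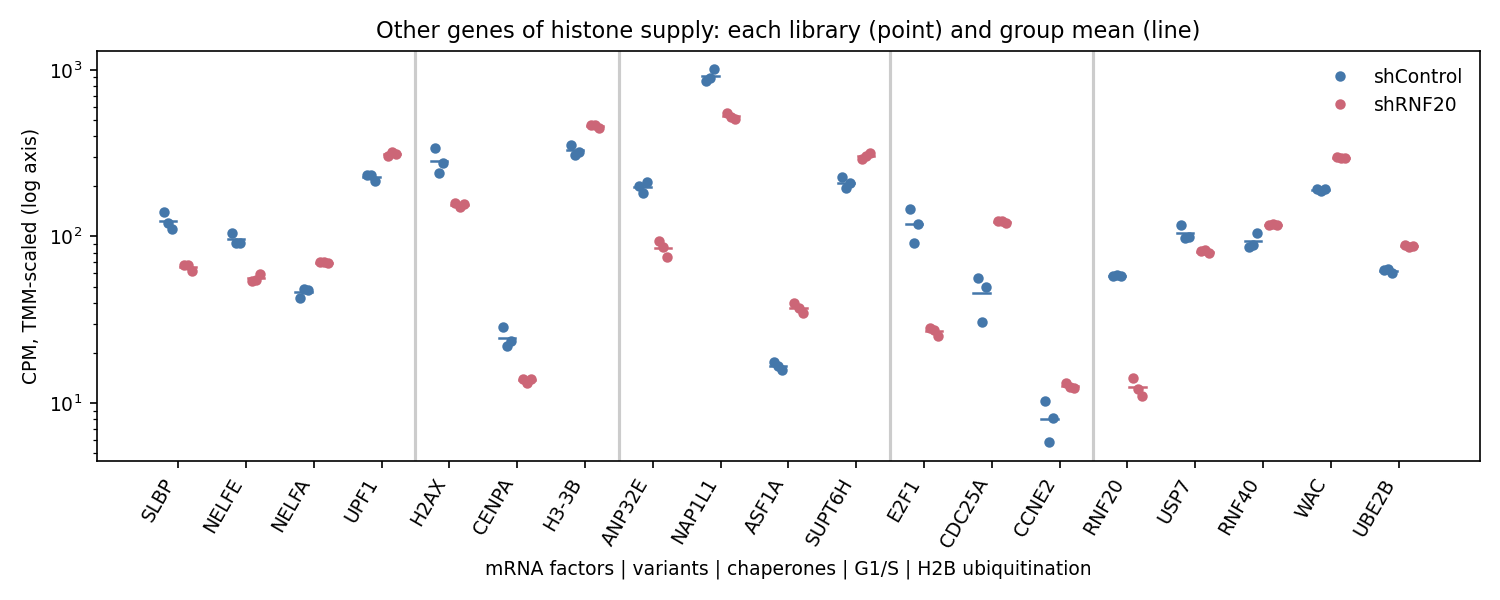
Levels in each library, in CPM on a log scale, of factors around the histone genes. SLBP, H2AX and E2F1 were lower in each shRNF20 library than in any shControl library.

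The marker genes of the line were present in both groups. Mean levels in shControl and shRNF20 were 638 and 475 CPM for VIM, with CD44 at 822 and 351, and EGFR at 432 and 381, while PGR was near the floor. ESR1, low in this line, was at 0.10 and 1.44 CPM. ERBB2 was at 102 and 139 CPM, and CDH1 at 18.2 and 6.99 CPM. Of 12 leukocyte markers, 6 could be tested, of which 1 rose (CD14) and 3 fell (LCP1 and CORO1A among them), with MS4A1 at 0 and a sum of 11 to 16 CPM in shControl and 7.34 to 9.58 in shRNF20. Of 11 fibroblast and endothelial markers, 8 could be tested, of which 4 rose (COL1A1 and LUM among them) and 2 fell (PECAM1 and ACTA2), with none at 0 and a sum of 31.2 to 42.6 against 65.3 to 69.2 CPM. Both sets of counts stand beside 28.7% of all genes tested that rose and 29.8% that fell. The part of these markers in the histone values was not tested.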

How the data were processed

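RNA-seq of MDA-MB-231 cells was analysed in 6 libraries, 3 with a control hairpin and 3 with one against RNF20. The authors deposited raw read counts per gene for each library. Per the submitters' processing notes, the tools were FastQC 0.12.1 and STAR 2.7.11a on build hg38. Annotation release, trimming and RNA selection: not given in the sources used here. Both strand columns were nearly equal (50.1% to 50.2% in 1 of them), so counts without strand were used. In those, reads over several genes or several places are left out, which lowers genes with overlaps or near copies. Lines naming no gene, 20.9% to 24.1% of reads, were left out.

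The counts were tested with edgeR 4.0.16 in R 4.3.3: filterByExpr (minimum count 10), TMM scaling and the robust quasi-likelihood F-test over 15797 genes, p-values adjusted by Benjamini-Hochberg and a threshold of 0.05. The SE is the log2 fold change divided by the root of F. CPM uses TMM library sizes, while sums use unscaled gene counts. The floor of 3 counts covers counting error only. Alternatives were DESeq2 1.42.0, limma-voom (limma 3.58.1), scaling by RLE or the upper quartile, other filters, strand sums, no mitochondrial genes, shRNF20 libraries summed, a replicate block, and each library left out. The test was checked on simulated counts. No label says whether replicates came from separate cultures. The p-values therefore measure the spread between these libraries alone, and it may be technical.

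Members and lists were chosen with earlier results of these data known. Values are named for RNF20 and RNF40, every member tested, untested members with at least 20 counts, and in each list the 2 genes of smallest p in each direction. The value of 1 listed marker is not reported here. Annotation came from GENCODE 29, which may not be the authors' release, and promoters from a RefSeq table of GRCh38.p14 holding 64 members. Merged exon lengths of members run from 297 to 5477 bases, so levels are not compared between genes.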

Additional observations from a re-analysis of the deposited data

How the results depend on the processing

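Over 16 alternatives the number of members that rose was 7 to 11, against 10, against 22.2% to 30.3% of all genes tested (20.3% with DESeq2 and 14.7% with no filter), except for 2, against 10.1%, with the shRNF20 libraries summed to 1 sample. Leaving out single libraries gave 7 to 11 that rose and 0 to 1 that fell; the 1 was H2BC17 without shControl replicate 2. All other alternatives gave 0 that fell. With a replicate block 10 rose, against 28% of all genes. The labels do not say whether the replicate numbers pair the samples. Same-numbered samples deviated together with correlations of -0.016, 0.035 and 0.028, and the block changed no count. These values show no shared shift but cannot exclude that libraries were made in pairs. H2BC15, level in the main analysis, was at a log2 fold change of -0.0084 with DESeq2, -0.038 without a filter and -0.0062 without mitochondrial genes, and from -0.15 to 0.19 without single libraries. H2BC11 reached 0.017 without shRNF20 replicate 1, with a lowest value of -0.24. Without mitochondrial genes 11 of 22 members tested rose. The summed counts of all members were 1.5-fold to 1.86-fold higher without single libraries, alternatives added after seeing the data. The cause of these shifts was not tested. At this depth 48 members had too few counts to be tested, and what keeps them low was not tested.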
